A study of Homo sapiens with 10 samples.

Results

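The genomic neighbourhoods of JUN, JUNB and JUND are described here through the binding sites that FOS, JUN, JUNB, NFKB1 and STAT3 occupied in them. The members are all peaks of 10 ChIP-seq peak lists whose summit, the position with the most reads, lies in chr1:59150000-59350000 around JUN, in chr19:12880000-12930000 around JUNB or in chr19:18365000-18420000 around JUND (coordinates of build hg19). These 3 windows held 308 of 879550 peaks. Summits of any list whose windows of 150 bp on each side overlapped by at least 1 bp were joined into 1 site, which gave 78 of 248897 sites, with 46 at JUN, 19 at JUNB and 13 at JUND. The windows were defined by position and not by a measured value. They were chosen with earlier results of these data known.

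Both groups consist of MCF10A-ER-Src cells, human breast epithelial MCF-10A cells with an added fusion gene, in which the hormone-binding part of the estrogen receptor holds the v-Src oncoprotein inactive until tamoxifen is given. The non-transformed cells were the ethanol cultures, and the transformed cells had received 1 µM 4-hydroxy-tamoxifen for 12 h. The names written inside the lists give 36 h for the ethanol libraries and 12 h for the tamoxifen libraries, so vehicle and treated cultures may also differ in time. There was 1 library for each protein and state, all from 1 engineered line, so no test between states was possible, and state cannot be told apart from library.

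JUN, JUNB and JUND are basic leucine zipper proteins that bind DNA as dimers with each other or with FOS proteins, and these dimers make up the transcription factor AP-1. JUN is known to bind and activate its own promoter through a variant AP-1 element, JUNB is an immediate early gene that responds to cytokines through STAT3, and JUND is expressed more constantly. NFKB1 is a DNA-binding subunit of NF-κB, and STAT3 is the factor that carries interleukin-6 signals to the nucleus.

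The promoters of the 3 genes are shown because JUN is known to act on its own promoter through an AP-1 type element, and they let the 3 genes be compared for such elements. Each sequence is the 250 bases before the RefSeq transcription start, read 5′ to 3′ along the gene, in build GRCh38.p14. The coordinates are chr1:58784048-58784297 on the minus strand for JUN, chr19:12791236-12791485 on the plus strand for JUNB and chr19:18281623-18281872 on the minus strand for JUND. This is another build than that of the peaks, and no position was carried from one to the other. Capitals mark each motif match.
JUN: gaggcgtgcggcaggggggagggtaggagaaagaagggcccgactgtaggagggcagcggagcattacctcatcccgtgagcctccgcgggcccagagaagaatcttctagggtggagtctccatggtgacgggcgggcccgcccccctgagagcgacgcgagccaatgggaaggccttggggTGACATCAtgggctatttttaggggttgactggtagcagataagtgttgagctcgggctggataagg
JUNB: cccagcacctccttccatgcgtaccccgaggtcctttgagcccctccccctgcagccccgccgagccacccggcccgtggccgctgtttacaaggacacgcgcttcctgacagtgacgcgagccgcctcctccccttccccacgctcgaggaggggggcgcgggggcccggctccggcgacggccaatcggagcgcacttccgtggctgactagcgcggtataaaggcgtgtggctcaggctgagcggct
JUND: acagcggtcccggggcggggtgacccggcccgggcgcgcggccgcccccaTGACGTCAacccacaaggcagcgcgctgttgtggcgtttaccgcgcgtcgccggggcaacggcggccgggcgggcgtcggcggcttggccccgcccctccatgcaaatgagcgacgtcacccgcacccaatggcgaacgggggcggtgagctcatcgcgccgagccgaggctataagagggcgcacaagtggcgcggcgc

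The motifs searched on both strands were TGANTCA (the AP-1 element), TGACGTCA (the cyclic AMP response element), TGACATCA (the variant element known in the JUN promoter), TTCNNNGAA (the STAT element) and the NF-kB consensus. The JUN promoter held TGACATCA from 67 to 60 bases before the start, and 2.38% of 35114 RefSeq promoters of the same length held that motif. The JUND promoter held TGACGTCA from 200 to 193 bases before the start, a motif found in 1.65% of promoters. The JUNB sequence held no match to either motif in this window. Only exact matches were searched, so looser forms of the listed elements were not covered. TGANTCA and TTCNNNGAA were each found in 6.57% of all promoters and the NF-kB consensus in 9.96%, and none of the 3 genes had a match to them. The 3 promoters were rich in G and C, at 62.0% for JUN, 70.8% for JUNB and 74.8% for JUND beside a median of 58.0% over all promoters.

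The measure used for the sites is the pileup, the number of extended reads over a summit. The libraries held 4837474 to 22082403 filtered reads, and depth differed between states. The transformed library had 1.19 times the reads of the non-transformed one for FOS, 1.16 times for JUN, 1.72 times for JUNB, 2.0 times for NFKB1 and 0.821 times for STAT3. Ratios between states are therefore given on pileup per 1000000 filtered reads, with an exact 95% interval on the pair of pileups that covers counting error only. The lists hold only peaks above the caller's threshold, and the lowest pileup listed was 4 to 5 reads, so a missing peak means that none was listed and not that no protein was bound. Fragment length as the caller estimated it, which sets how far reads are extended, was 114 to 150 bp and fell from 150 to 119 bp between the STAT3 libraries.

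All 3 windows were densely occupied. The JUN window held 46 sites, where the median tile of 200000 bp in the genome held 15 and 1.21% of tiles held at least as many. The JUNB window held 19 sites beside a median of 3, and 0.429% of tiles of 50000 bp reached that number. The JUND window held 13 beside a median of 4, with 4.22% of tiles of 55000 bp at or above it. Per 10 kb this came to 3.8 sites at JUNB, 2.364 at JUND and 2.3 at JUN. Tiles include regions with no genes, so the comparison does not separate these genes from other expressed genes.

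The 78 sites ranged from weak sites of 1 library to sites that nearly every library shared. Peaks from 1 list alone made up 28 sites, with 17 at JUN, 7 at JUNB and 4 at JUND, and the share over all sites was 38.7%. At least 7 of the 10 lists met at 17 of 78 sites (genome-wide 18.1%), 11 at JUN, 4 at JUNB and 2 at JUND. A single site, downstream of JUN, had a peak in all 10 lists. All 5 proteins were listed in transformed cells at 13 of 78 sites (genome-wide 14.8%), of which 10 were at JUN, 3 at JUNB and 0 at JUND. In non-transformed cells all 5 met at 2 of 78 sites (genome-wide 2.41%), the strongest site of the JUN window and that of the JUND window. NFKB1 or STAT3 without any FOS, JUN or JUNB peak was seen at 10 of 78 sites (genome-wide 8.68%), 7 at JUN and 3 at JUNB. These differences from the genome-wide shares were not tested.

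In the JUN window FOS was the protein listed at the most sites in both states, as it was over the genome. FOS, the partner that gives AP-1 its most stable dimers, was listed at 22 of the 46 sites in non-transformed and 25 in transformed cells. JUN was listed at 18 and 21 sites, JUNB at 13 and 18, and STAT3 at 16 and 17. NFKB1 was listed at 4 sites in non-transformed and 17 in transformed cells, beside 13023 and 71098 of 248897 over the genome. That was the widest change of the 5 proteins, in the window as over the genome. The transformed NFKB1 library had 2.0 times the reads of the non-transformed one. The strongest sites lay far from the gene, at 28.4 and 56.5 kb downstream and at 64.9, 97.6 and 99.3 kb upstream of the transcription start at 59249785, with a weaker site over the start itself. JUN lies on the minus strand, so downstream means lower coordinates.

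**Figure D1:**
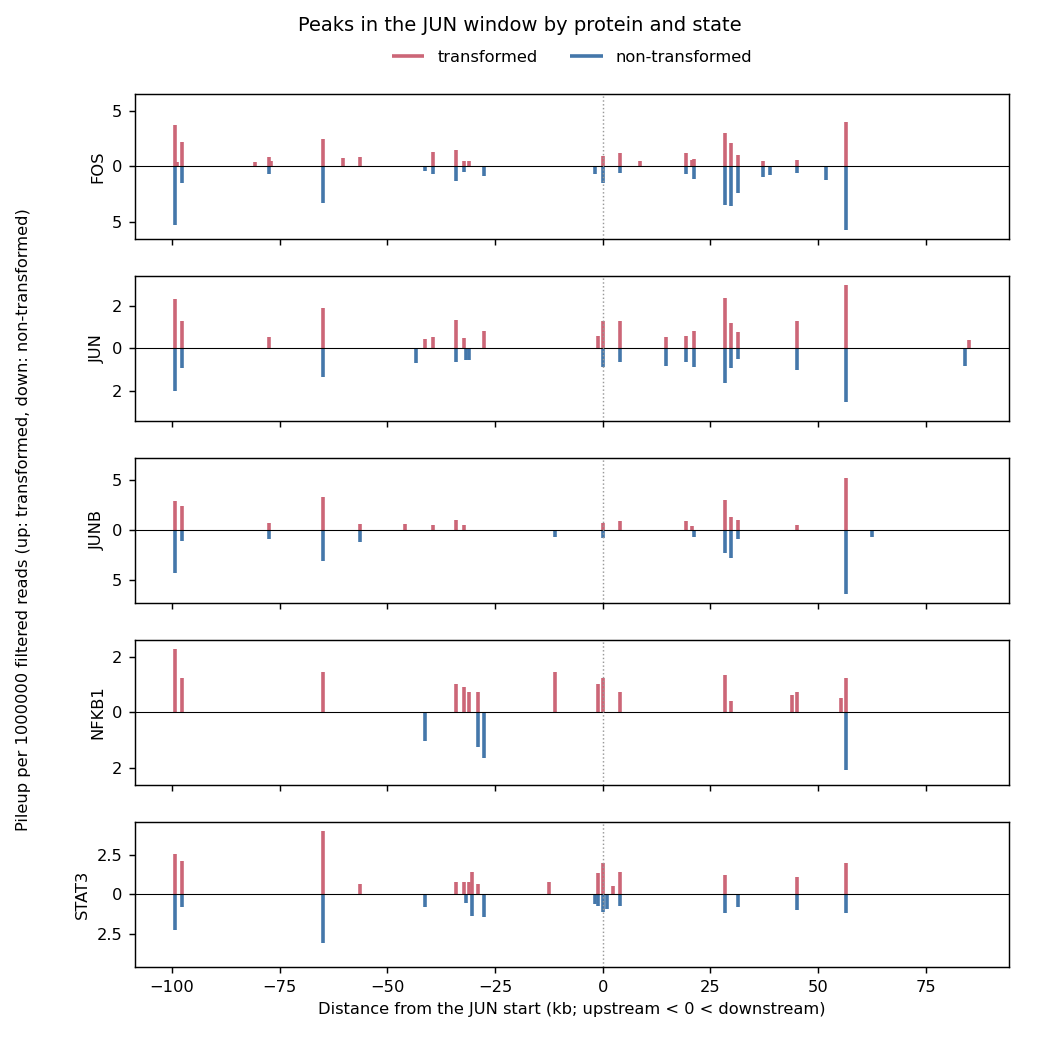
Pileup per 1000000 filtered reads (vertical axis, a scale of its own for each protein) of every listed site against distance from the JUN start in kb (horizontal axis, dotted line at 0), with 1 row for each of the 5 proteins and 1 library for each state. Lines up are transformed and lines down non-transformed cells: FOS, JUN and JUNB are all tall at 56.5 and 28.4 kb downstream and 64.9 and 99.3 kb upstream, FOS and JUNB also at 29.9 kb downstream, and the NFKB1 row has 4 sites below and 17 above the line.

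The site 56.5 kb downstream of JUN, at chr1:59193199-59193276, led the window. FOS pileup was 106 reads without and 88 with tamoxifen there. JUN had 40 and 55 reads and JUNB 58 and 82, while NFKB1 had 10 and 12 and STAT3 13 and 18. Per 1000000 filtered reads, FOS and JUNB were the highest in both states, while JUN at 2.52 and NFKB1 at 2.07 were close in non-transformed cells. FOS stood at 6.63 and 5.50 times the median pileup of its list, which placed the site in the top 1.10% and 0.862% of FOS peaks, and JUNB at 5.80 and 5.47 times, in the top 0.893% and 0.906%. Relative to depth, FOS was lower in transformed cells at a ratio of 0.7 (95% interval 0.522 to 0.938), and 24.0% of all shared FOS sites had a ratio at least as low. The JUN ratio of 1.18 (0.772 to 1.82) and the JUNB ratio of 0.824 (0.582 to 1.17) had intervals that include 1. The summits of the 5 proteins spanned 61 bp without and 34 bp with tamoxifen, less than 1 fragment length.

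At 99.3 kb upstream, at chr1:59349100-59349155 near the edge of the window, FOS was almost as high and JUN and JUNB were lower. FOS had 98 and 83 reads, JUN 32 and 43 and JUNB 39 and 46 in non-transformed and transformed cells. STAT3 had 25 and 23 reads, and NFKB1 went from no listed peak to 22 reads. FOS was again lower per read sequenced, at 0.714 (0.527 to 0.967), a ratio that 25.7% of shared FOS sites had or undercut. Of the NFKB1 peaks seen in transformed cells alone over the genome, 4.11% had at least 22 reads. At an equal rate of reads the shallower non-transformed NFKB1 library would have shown 11.0, above the median of 8 in its list.

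Between these, the site 97.6 kb upstream, at chr1:59347337-59347412, rose in several proteins. JUNB pileup was 10 reads without and 39 with tamoxifen, a ratio of 2.27 (1.11 to 5.11) that 5.03% of shared JUNB sites reached. STAT3 had 9 and 19 reads, a ratio of 2.57 (1.11 to 6.46), but 24.5% of shared STAT3 sites reached it. FOS had 28 and 49 reads at a ratio of 1.48 (0.909 to 2.44), JUN 15 and 24 at 1.37 (0.692 to 2.82), and NFKB1 none and 12. The JUNB change was the one that the fewest sites of its protein shared, and the intervals of FOS and JUN include 1.

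The remaining strong sites changed little relative to counting error. At 64.9 kb upstream, chr1:59314582-59314743, FOS had 62 and 55 reads, JUN 21 and 35, JUNB 28 and 53, STAT3 34 and 36 and NFKB1 none and 14. This was the highest STAT3 site of the JUN window in both states, at 3.40 and 3.27 times the list median. At 28.4 kb downstream, chr1:59221351-59221413, FOS had 64 and 67 reads, JUN 26 and 44, JUNB 21 and 48, STAT3 13 and 11 and NFKB1 none and 13. The intervals of all ratios at these 2 sites include 1. The downstream site has 2 neighbours, named here after their values were seen, at which FOS was lower in transformed cells. At 29.9 kb FOS went from 67 to 46 reads, a ratio of 0.579 (0.389 to 0.855), and JUNB from 25 to 21, a ratio of 0.490 (0.261 to 0.911). At 31.3 kb FOS went from 45 to 22 reads, a ratio of 0.412 (0.236 to 0.701), which 2.29% of shared FOS sites had or undercut. JUN had 15 and 22 reads at 29.9 kb (ratio 1.26, 0.625 to 2.61) and 8 and 14 at 31.3 kb (1.5, 0.589 to 4.14). JUNB had 8 and 16 reads at 31.3 kb (1.17, 0.471 to 3.15). The JUN intervals include 1 and overlap those of FOS. Whether JUN differed from FOS at these sites was not tested, and each ratio rests on 1 library for each state.

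The start of JUN carried moderate peaks. The site over it, chr1:59249707-59249961, was outside the 5 strongest and is described because of its position. FOS had 27 and 20 reads, JUN itself 14 and 24, JUNB 7 and 11, STAT3 12 and 18 and NFKB1 none and 12. JUN stood at 1.27 and 1.85 times its list median, so its own start was an ordinary JUN site in strength. The ratios of 0.625 (0.332 to 1.16) for FOS, 1.47 (0.732 to 3.08) for JUN, 0.916 (0.324 to 2.79) for JUNB and 1.83 (0.833 to 4.16) for STAT3 all have intervals that include 1. At 4.0 kb downstream, FOS had 11 and 26 reads and JUN 10 and 24, ratios of 1.99 (0.952 to 4.47) and 2.06 (0.95 to 4.83), and JUNB with 14 reads and NFKB1 with 7 were listed in transformed cells alone. Within the 1.8 kb upstream of the start, STAT3 had 8 and 12 reads at 1.0 kb, where JUN with 11 and NFKB1 with 10 were listed in transformed cells alone, and FOS with 12 and STAT3 with 7 at 1.8 kb were listed in non-transformed cells alone.

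The JUNB window held its highest pileups in STAT3 and NFKB1, although JUN and FOS peaks were also listed there. FOS was listed at 6 of 19 sites in non-transformed and 8 in transformed cells, and none of the 6 lay above the median of the FOS list. These are smaller shares than the 116415 and 158859 of 248897 sites over the genome. Of the same 248897 sites, JUN was listed at 79046 and 123134, JUNB at 73537 and 98810 and STAT3 at 41806 and 77271. The NFKB1 counts over the genome are those given for the JUN window. Within the JUNB window, JUN was listed at 8 and 11 sites, of which 2 and 3 lay above the median of its list. JUNB was listed at 0 and 3 sites of its own gene, NFKB1 at 3 and 10 and STAT3 at 5 and 12. The median STAT3 site of the window had 1.90 times the list median in non-transformed and 2.32 times in transformed cells, whereas the median FOS site had 0.531 and 0.688 times. No hg19 annotation was used here, so distances are counted along the chromosome from the strongest site and no site is assigned to the JUNB promoter.

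**Figure D2:**
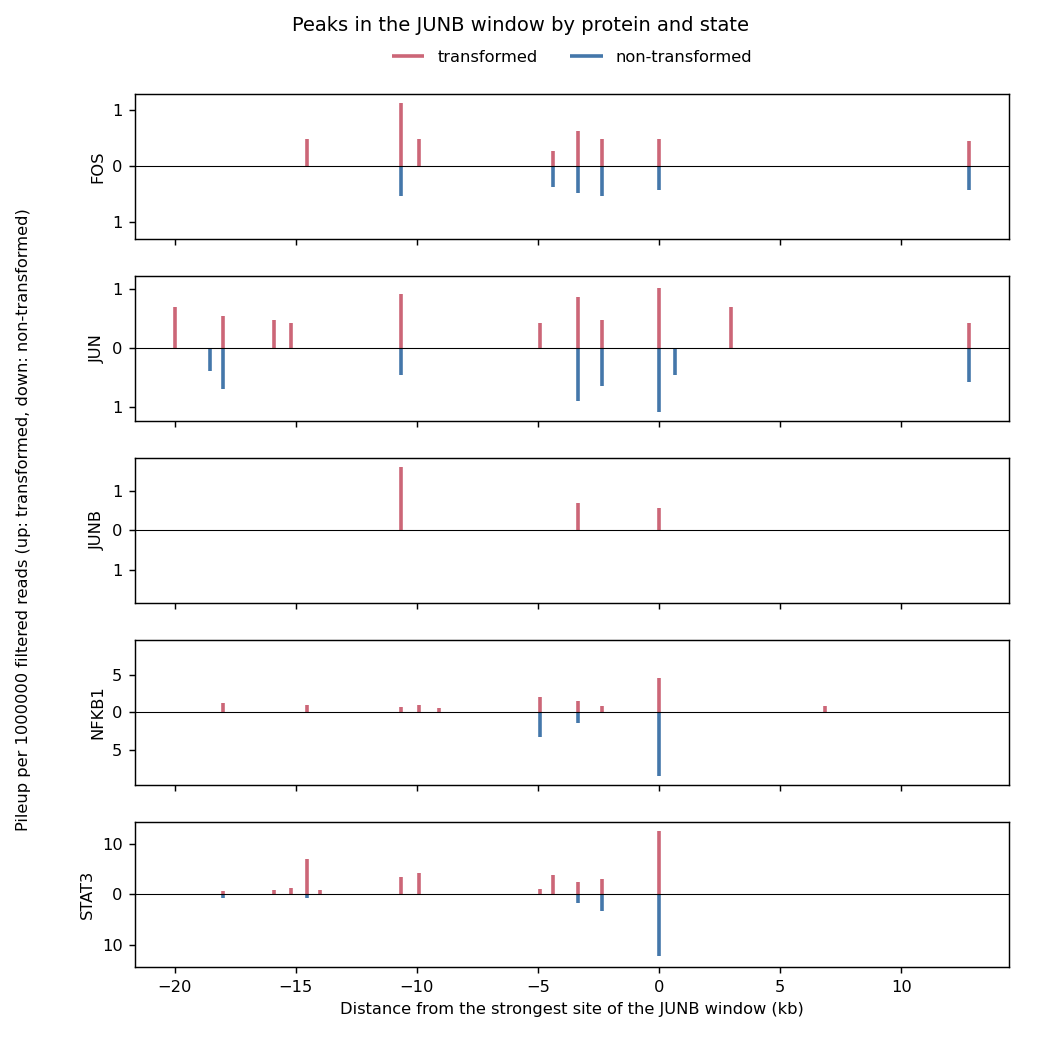
Pileup per 1000000 filtered reads (vertical axis, a scale of its own for each protein) of every listed site against distance in kb from the strongest site of the JUNB window (horizontal axis), with 1 library for each protein and state. The STAT3 lines at 0 are alike in both states, those on the left at 14.5, 10.7, 9.9 and 4.4 kb are far higher in transformed cells (up) than in non-transformed cells (down), and JUNB has lines in transformed cells only.

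The strongest site, at chr19:12904442-12904585, was among the highest STAT3 peaks of the genome. STAT3 pileup was 133 reads without and 113 with tamoxifen, which is 13.3 and 10.3 times the median of its lists and in the top 0.0537% and 0.0797% of STAT3 peaks. NFKB1 had 41 and 44 reads, in the top 2.42% and 2.28% of its lists. JUN had 17 and 19 reads, FOS 8 and 11, and JUNB none and 9, all close to or below their list medians except JUN at 1.55 and 1.46 times. STAT3 was thus already high before tamoxifen. Its ratio was 1.04 (0.799 to 1.34), below the median of 1.706 over all shared STAT3 sites, and became 0.607 when pileups were scaled to that median. The NFKB1 ratio was 0.537 (0.343 to 0.842) beside a genome median of 1.031, and 9.51% of shared NFKB1 sites had a ratio as low. On the caller's fold enrichment over local background the NFKB1 ratio was 0.931, so the size of this decrease depended on the scale.

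On the side of lower coordinates, 4 sites carried STAT3 peaks of middle to high rank that were weak or not listed in non-transformed cells. At 14.5 kb, chr19:12889953-12890029, STAT3 went from 8 to 63 reads, a ratio of 9.60 (4.59 to 23.2) that 0.330% of shared STAT3 sites reached, and FOS with 11 and NFKB1 with 9 reads were listed in transformed cells alone. The STAT3 ratio at this site was 8.19 on fold enrichment and 5.63 after scaling to the genome median. It was the largest ratio of any protein at the 78 sites.

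At 10.7 kb, chr19:12893818-12893955, STAT3 had 31 reads and JUNB 25 in transformed cells, with no listed peak in non-transformed cells. NFKB1 had none and 7, FOS 10 and 25 at a ratio of 2.11 (0.978 to 4.92), and JUN 7 and 17 at 2.09 (0.822 to 5.95). All 5 proteins were higher in or seen in transformed cells alone, although the FOS and JUN intervals include 1. At an equal rate the non-transformed JUNB library would have shown 14.6 reads, above its list median of 10. This was the strongest JUNB peak near the JUNB gene, and 4.97% of JUNB peaks seen in transformed cells alone had as many reads.

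At 9.9 kb, chr19:12894580-12894710, STAT3 had 38 reads, FOS 11 and NFKB1 9 in transformed cells, and no protein was listed in non-transformed cells. Of STAT3 peaks seen in transformed cells alone, 2.25% had at least 38 reads. At 4.4 kb, chr19:12900133-12900313, a site named after its values were seen, STAT3 went from none to 34 reads while FOS had 7 and 6. The non-transformed STAT3 library was the deeper of the pair and would have shown 37.8, 46.3 and 41.4 reads at 10.7, 9.9 and 4.4 kb at an equal rate, so these 3 sites were missing from the deeper library.

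Nearer the strongest site, STAT3 was bound in both states. At 3.4 kb, chr19:12900716-12901274, STAT3 had 19 and 23 reads, JUN 14 and 16, FOS 9 and 14, NFKB1 7 and 15 and JUNB none and 11. At 2.3 kb, chr19:12902177-12902400, STAT3 had 37 and 28 reads, JUN 10 and 9, FOS 10 and 11 and NFKB1 none and 8. No ratio at these 2 sites had an interval that leaves out 1. The STAT3 ratio at 2.3 kb was 0.922 (0.544 to 1.55), close to that of the strongest site. NFKB1 also had a peak at 4.9 kb, with 16 and 20 reads (0.625, 0.308 to 1.29).

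The strongest site of the JUND window was weaker than that of the JUN or JUNB window by summed pileup relative to depth. FOS and JUN were listed at more JUND sites than STAT3 or NFKB1 in both states, an order also found over the genome. JUN was listed at 8 of 13 sites in non-transformed and 9 in transformed cells, FOS at 6 and 7, JUNB at 4 and 4, STAT3 at 4 and 2 and NFKB1 at 1 and 3. The genome-wide counts are those given with the JUN and JUNB windows. No STAT3 or NFKB1 site rose above the median of its list in either state. The median FOS site had 0.969 times the list median in non-transformed and 0.688 times in transformed cells. The median JUN site had 0.864 and 0.769 times, and the median JUNB site 1.2 and 0.833 times. The transformed FOS value and both JUN values equalled those of the JUNB window, so typical FOS and JUN sites were not stronger here in transformed cells. JUNB had 3 of its sites in common with FOS in both states, at 0, 6.7 and 26.2 kb from the strongest site. As for JUNB, distances run along the chromosome.

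**Figure D3:**
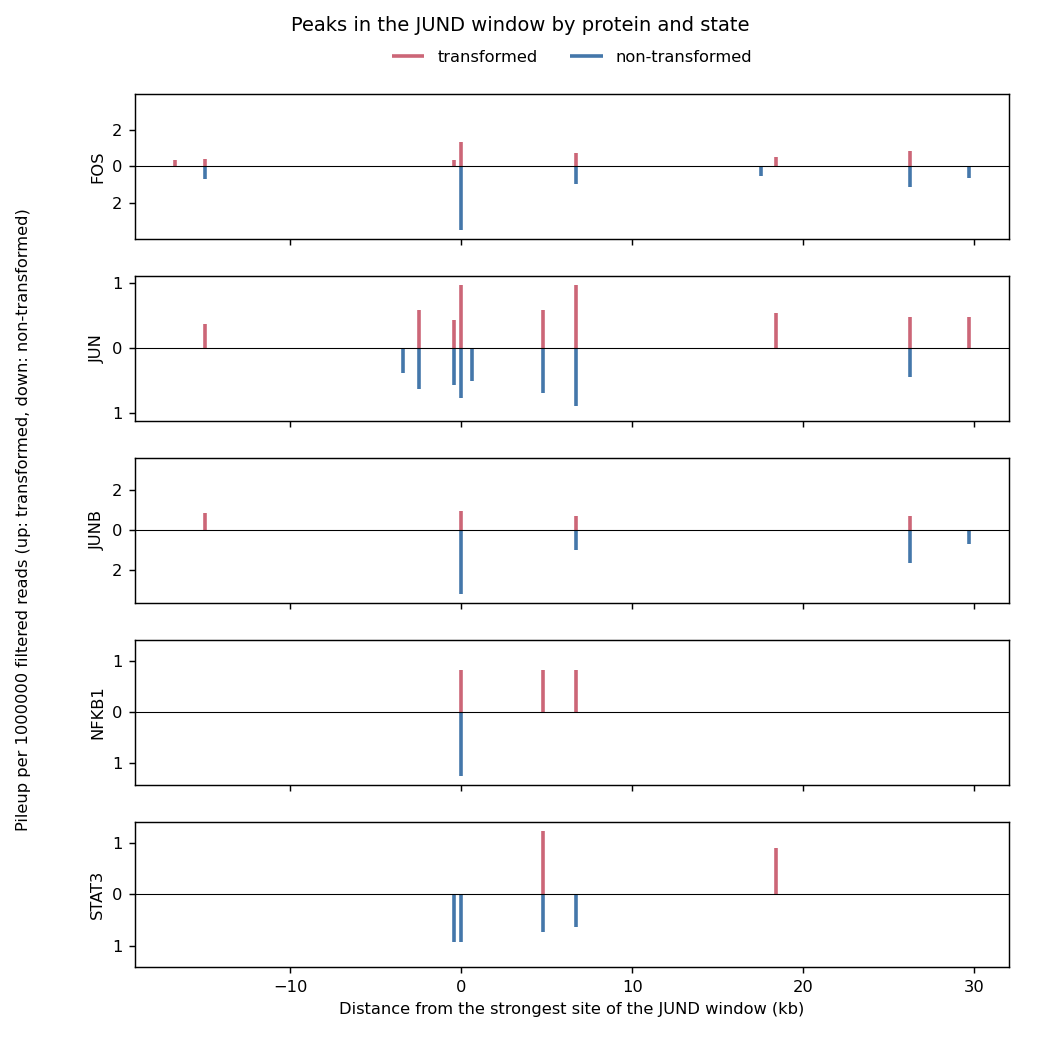
Pileup per 1000000 filtered reads (vertical axis, a scale of its own for each protein) of every listed site against distance in kb from the strongest site of the JUND window (horizontal axis), with 1 library for each protein and state. At 0 kb the FOS and JUNB lines of non-transformed cells (down) are far taller than those of transformed cells (up), and JUN lines are of like height.

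At the strongest JUND site, chr19:18385795-18385842, FOS pileup was 64 reads without and 29 with tamoxifen. JUNB had 29 and 15 reads, JUN 12 and 18, NFKB1 6 and 8 and STAT3 10 and none. FOS and JUNB were both lower in transformed cells, while the interval of the JUN ratio includes 1. The FOS ratio was 0.382 (0.238 to 0.601), which 1.53% of shared FOS sites had or undercut. The JUNB ratio was 0.301 (0.150 to 0.581), which 0.511% of shared JUNB sites had or undercut. The JUN ratio of 1.29 (0.587 to 2.93) equalled the genome median of 1.289. FOS moved from the top 7.61% of its list to the top 27.7% and JUNB from the top 9.68% to the top 50.1%. The summits of the proteins lay within 47 bp in non-transformed and 28 bp in transformed cells.

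The other JUND sites were modest. At 26.2 kb, chr19:18412029-18412065, FOS had 21 and 19 reads, JUN 7 and 9 and JUNB 15 and 11, with a JUNB ratio of 0.427 (0.178 to 0.996). At 6.7 kb, chr19:18392499-18392607, FOS had 18 and 16 reads, JUN 14 and 18, JUNB 9 and 11, NFKB1 none and 8 and STAT3 7 and none. JUNB was lower relative to depth at the first and had an interval that includes 1 at the second, 0.712 (0.268 to 1.95). At 15.0 kb on the side of lower coordinates, chr19:18370852-18370918, FOS had 13 and 9 reads, and JUN with 7 and JUNB with 14 were listed in transformed cells alone. At 4.8 kb, chr19:18390560-18390742, JUN had 11 in both states, STAT3 8 and 11 and NFKB1 none and 8. At 18.4 kb, chr19:18404170-18404391, FOS with 11, JUN with 10 and STAT3 with 8 reads were listed in transformed cells alone, each below its list median.

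At the caller's threshold, the transformed lists held more peaks of every protein over the 3 windows. FOS had 37 peaks in non-transformed and 46 in transformed cells, a ratio of 1.24 (95% interval 0.789 to 1.97) beside 1.375 over the genome. JUN had 34 and 45, a ratio of 1.32 (0.829 to 2.13) beside 1.563, and STAT3 had 26 and 35, a ratio of 1.35 (0.788 to 2.33) beside 1.875. JUNB had 18 and 27 peaks, a ratio of 1.5 (0.796 to 2.89) beside 1.342. NFKB1 had 8 and 32 peaks, a ratio of 4.0 (1.81 to 10.1) beside 5.571. The genome ratio lay inside the interval for each of the 5 proteins, and only the NFKB1 interval left out 1. These intervals treat the 2 peak numbers as independent counts, although many sites were listed in both states, and they are no test of state. The NFKB1 rise went with a transformed library of 2.0 times the reads, and at 23 of its 24 sites seen in transformed cells alone the non-transformed library would, at an equal rate, have shown fewer reads than its list median of 8. The part of depth in the rise was not tested. Among peaks of at least 2 per 1000000 filtered reads, the ratio between states was 0.857 for FOS, 0.833 for JUNB and 1.0 for NFKB1. It was 1.5 for JUN and 3.0 for STAT3, so a rise in every protein depended on the threshold.

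The same rise was seen in the number of sites. A transformed peak without a non-transformed one was found at 13 of 40 FOS sites (genome-wide 38.7%), 15 of 41 JUN sites (48.9%), 12 of 25 JUNB sites (44.3%), 24 of 30 NFKB1 sites (83.5%) and 15 of 31 STAT3 sites (61.1%). The reverse was found at 7 of 34 FOS sites (16.3%), 8 of 34 JUN sites (20.4%), 4 of 17 JUNB sites (25.1%), 2 of 8 NFKB1 sites (9.97%) and 9 of 25 STAT3 sites (28.1%). Counting all proteins together, 22 of 78 sites had peaks in transformed cells only (34.6%), with 12 at JUN, 8 at JUNB and 2 at JUND. In non-transformed cells only there were 13 of 78 (15.0%), with 8 at JUN, 2 at JUNB and 3 at JUND. At JUNB, STAT3 gained 7 of 12 sites and lost 0 of 5, at JUN it gained 7 of 17 and lost 6 of 16, and at JUND it gained 1 of 2 and lost 3 of 4. These counts are small and the differences between the windows were not tested.

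Upstream of JUN, 2 sites lost their FOS, NFKB1 and STAT3 peaks and had a JUN peak in transformed cells alone. Both were named after their values were seen. At 41.2 kb, chr1:59290939-59290999, FOS had 8 reads, NFKB1 5, STAT3 9 and JUN 8, each below its list median. At 27.5 kb, chr1:59277174-59277294, FOS had 16 reads, NFKB1 8, STAT3 16 and JUN 15. Of STAT3 peaks seen in non-transformed cells alone, 2.42% had at least 16 reads. At an equal rate the transformed libraries would have shown, at 27.5 kb, 19.0 FOS, 16.0 NFKB1 and 13.1 STAT3 reads, each above its list median of 16, 9 and 11. A FOS peak of 23 reads at 51.8 kb downstream of JUN, likewise named after its value was seen, was without a partner in transformed cells.

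Where a site was listed in both states, the pileups could be compared relative to depth. The median ratio was 0.883 for FOS over 27 sites (95% order-statistic interval 0.7 to 1.16, genome median 0.949) and 1.13 for JUN over 26 sites (0.945 to 1.37, genome 1.289). It was 0.801 for JUNB over 13 sites (0.490 to 1.17, genome 0.964), 0.613 for NFKB1 over 6 sites (0.537 to 1.07, genome 1.031) and 1.38 for STAT3 over 16 sites (1.05 to 1.83, genome 1.706). All 5 medians lay below those of the genome, and the genome median lay inside the interval for each protein. These intervals treat the sites of 1 pair of libraries as independent. They are bounds for the median over sites and do not cover variation between libraries of a state. For NFKB1 the interval runs from the lowest to the highest of the 6 ratios, so its holding the genome median says little. Scaled to the genome median, the STAT3 ratio turned to 0.811 and the JUN ratio to 0.877, so whether these proteins gained or lost at the shared sites depended on the scaling. On the caller's fold enrichment the NFKB1 ratio was 1.035 and the JUNB ratio 1.043, so their direction depended on the scale as well.

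Changes of at least 1.5-fold were counted at the sites listed in both states. Pileup was that much higher in transformed cells at 4 of 27 FOS sites (genome-wide 18.5%), 4 of 26 JUN sites (36.6%), 1 of 13 JUNB sites (18.6%), 0 of 6 NFKB1 sites (23.7%) and 7 of 16 STAT3 sites (58.8%). It was that much lower at 7 of 27 FOS sites (20.4%), 1 of 26 JUN sites (4.53%), 4 of 13 JUNB sites (21.0%), 4 of 6 NFKB1 sites (18.1%) and 0 of 16 STAT3 sites (3.89%). These counts are small, and their differences from the genome-wide shares were not tested. Of the 7 FOS sites that were lower, 5 were at JUN and 2 at JUND.

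**Figure D4:**
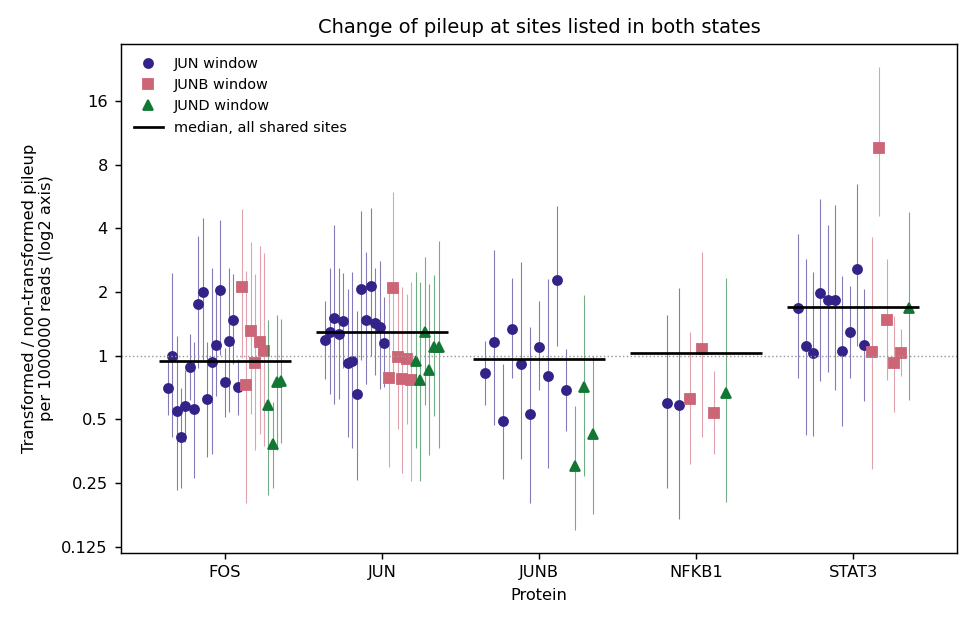
Ratio of transformed to non-transformed pileup per 1000000 filtered reads (vertical axis, log2 scale) at each site listed in both states, by protein (horizontal axis), with points coloured by window, thin lines for the 95% counting interval and a black bar for the median over all shared sites of the genome. One STAT3 point at JUNB stands apart at 9.60, the lowest FOS and JUNB points, at 0.382 and 0.301, are the strongest JUND site, and most other intervals include 1.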

How the data were processed

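Chromatin immunoprecipitation sequencing of 5 proteins was analysed in non-transformed and transformed MCF10A-ER-Src cells, with 1 library and 1 peak list for each protein and state. The submitters' processing notes name Bowtie, MACS2 and build hg19. Per the file headers, the authors called peaks in each library with MACS 2.0.10.20131216 from reads of 36 bp, without a control, keeping 1 read per position, with a local background of 1000000 bp and a q-value cutoff of 0.05. The deposited signal is the pileup of extended reads at the summit, not scaled by depth. The deposited fold enrichment is a ratio to the local background, and the deposited p-value and q-value columns are on the −log10 scale.

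Samples were grouped by their labels. Sites were built as the report describes, over chromosomes 1 to 22 and X, by code tested on simulated data, and the genome-wide shares come from the same sites. Where a list had several peaks in a site, the highest was used. Equal-rate reads are the pileup of one state multiplied by the ratio of the depths. Named sites were those in all 10 lists, the 5 with the highest summed pileup per 1000000 filtered reads in each window, and those with at least 3 proteins in one state and none in the other. Other named sites were chosen after their values were seen. Windows and lists were chosen with earlier results of these data known. Promoters came from RefSeq, with all 3 genes matched. Protein sequences were not compared. Alternatives were narrower summit windows, whole peaks, 2 stricter thresholds, shorter gene windows, fold enrichment and scaling to the genome median. All values were computed in Python 3.11.15, with matplotlib 3.10.9, scipy 1.17.1, pandas 2.3.3 and numpy 2.4.6.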

Additional observations from a re-analysis of the deposited data

How the results depend on the processing

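No paired analysis was possible because each protein had 1 library in each state, and for the same reason no replicate could be left out. Of 75 alternatives for the counts, peak ratios and median ratios, 54 gave values alike and 20 moved. The number of sites followed the threshold. With a −log10 q-value of at least 10 there were 24 sites at JUN, 10 at JUNB and 5 at JUND, 2 sites in non-transformed cells only, 4 with all 5 proteins in transformed and 1 in non-transformed cells. With a pileup of at least 2 per 1000000 filtered reads there were 8 sites at JUN, 8 at JUNB and 1 at JUND, 7 in transformed and 2 in non-transformed cells only, 1 with all 5 proteins in transformed and 0 in non-transformed cells, and the peak ratio was 1.0 for NFKB1 and 3.0 for STAT3. At that pileup threshold the peak ratios of FOS (0.857) and JUNB (0.833) passed below 1, although both were counted as alike. Windows of 0.5 times the length left 12 sites at JUNB, 11 in transformed cells only and 1 with all 5 proteins in non-transformed cells. Summit windows of 50 bp gave 37 sites in transformed cells only. Scaling to the genome median turned the STAT3 median ratio from 1.38 to 0.811 and moved that of JUN to 0.877. On fold enrichment the median ratios of NFKB1 (1.035) and JUNB (1.043) passed from below to above 1. At the named sites, 100 of 104 alternatives gave values alike and 4 moved, among them STAT3 at 64.9 kb upstream of JUN, at 0.756, and at 2.3 kb from the strongest JUNB site, at 0.541, both under that scaling. Low pileups limit what the weaker sites can show: JUN with 17 and 19 reads at the strongest JUNB site has an interval of 0.473 to 1.97. State cannot be told apart from library.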
